A study of Mus musculus with 15 samples.

Results

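The genes described here encode the machinery of DNA replication and cell division. They were chosen as a list of 43 named cell cycle genes, each represented by the probeset of a single gene symbol with the highest mean signal. Of these, 42 had a value, among 19938 genes measured in all, and Ccnb1 had no probeset of a single symbol in the annotation used here. The rule uses no difference between populations.

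The arrays held RNA of 5 populations sorted from the lamina propria (LP) of the small intestine of untreated WT mice, with 3 arrays for each population and 15 in all. These were CD64+ macrophages (mϕ), sorted as CD45+Ly6C-MHCII+CD64+CD11b+ cells, and 4 subsets of CD64- dendritic cells (DCs). One DC subset lacked both CD103 and CD11b (CD103-CD11b-), another carried both (CD103+CD11b+), and the others carried CD11b alone (CD103-CD11b+) or CD103 alone (CD103+CD11b-). The study compared them as a step towards markers, other than CD103 itself, for DCs of the CD103+CD11b+ lineage. No mutant or treated mice were part of these arrays, and how many mice contributed to a sample is not given in the sources used here, so p-values measure the spread between these samples.

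A cell that divides first commits to S phase, when E-type cyclins and E2F factors act, then copies its DNA with the MCM helicase and its partners, and finally separates the copies in mitosis with A- and B-type cyclins, spindle motors and the kinetochore. RNA of many of these genes is made only at the stage that needs it, and is low in cells that have left the cycle. DCs of the gut descend from precursors that arrive in blood and can still divide in the tissue, whereas mϕ of the adult gut are replenished mainly by monocytes that mature there.

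The sort genes followed the labels. Fcgr1, which encodes CD64, had a log2 signal of 8.92 ± 0.21 in mϕ (SD, n = 3) and of 3.69 to 5.02 on the 12 DC arrays. Flt3, the cytokine receptor of DCs and their precursors, was at 5.31 ± 0.15 in mϕ and at 9.39 to 10.18 on the DC arrays. Itgam, which encodes CD11b, averaged 10.24 in mϕ, 9.56 in the CD103+CD11b+ subset and 9.53 in the CD103-CD11b+ subset, against 6.64 in the CD103-CD11b- subset and 4.93 in the CD103+CD11b- subset. Itgae, which encodes CD103, averaged 5.09 in mϕ, 10.38 in the CD103+CD11b+ subset and 10.90 in the CD103+CD11b- subset, against 8.76 in the CD103-CD11b- subset and 7.84 in the CD103-CD11b+ subset. Array medians of all probesets lay between 4.74 and 4.86, because the authors' normalization makes the distributions alike. Signals are on a log2 scale, so a difference of 1 is a doubling, and levels of different genes are not compared because their probes differ.

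Promoter sequences are shown for 6 genes because the list joins 2 sets of promoters, one of mitotic genes and one of replication genes. The mitotic genes shown are those with the largest differences between mϕ and DCs in the list, so they are not typical of their set. In mitotic promoters the CHR, a short element near the start site, and CCAAT boxes upstream of it are known to bind the DREAM complex and NF-Y, whereas replication promoters carry sites for E2F factors. Each run below reads 5′ to 3′ in the direction of transcription, from 120 bases before to 30 bases after the start annotated by RefSeq (mouse build GRCm38.p6), and the capitals mark every match to the CHR (TTTGAA or TTCGAA), the CCAAT box (CCAAT) or an E2F site (TTTCCCGC, TTTGGCGC, TTTCGCGC or TTTGCCGC), on either strand. Bub1 lies at chr2:127831830-127831979 (minus strand), Ccnb2 at chr9:70421525-70421674 (minus), Ube2c at chr2:164769809-164769958 (plus), Kif11 at chr19:37376262-37376411 (plus), Mcm6 at chr1:128359676-128359825 (minus) and Mcm3 at chr1:20820283-20820432 (minus).
Bub1: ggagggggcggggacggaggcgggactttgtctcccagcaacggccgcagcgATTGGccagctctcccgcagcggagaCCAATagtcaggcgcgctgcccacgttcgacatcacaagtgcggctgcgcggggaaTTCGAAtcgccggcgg
Ccnb2: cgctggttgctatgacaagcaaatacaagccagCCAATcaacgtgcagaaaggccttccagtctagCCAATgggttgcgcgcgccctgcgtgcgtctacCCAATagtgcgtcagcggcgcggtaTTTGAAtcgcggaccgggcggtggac
Ube2c: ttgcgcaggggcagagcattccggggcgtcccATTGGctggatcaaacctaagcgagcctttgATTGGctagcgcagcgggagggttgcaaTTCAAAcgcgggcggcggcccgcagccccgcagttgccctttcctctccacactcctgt
Kif11: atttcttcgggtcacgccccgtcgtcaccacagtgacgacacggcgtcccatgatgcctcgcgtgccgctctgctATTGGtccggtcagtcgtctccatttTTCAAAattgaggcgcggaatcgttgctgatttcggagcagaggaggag
Mcm6: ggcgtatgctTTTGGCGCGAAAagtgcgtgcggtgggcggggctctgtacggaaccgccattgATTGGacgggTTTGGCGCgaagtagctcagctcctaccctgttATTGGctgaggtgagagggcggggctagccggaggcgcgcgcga
Mcm3: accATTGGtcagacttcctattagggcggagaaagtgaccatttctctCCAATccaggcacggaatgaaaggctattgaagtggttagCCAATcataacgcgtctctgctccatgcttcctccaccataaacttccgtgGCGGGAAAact
In Bub1 the CCAAT boxes began at positions -68 and -42 and the CHR at position 15, counted from 1 at the first transcribed base with no position 0. Ccnb2 had 3 CCAAT boxes, at -87, -54 and -21, and a CHR at 5. Ube2c and Kif11 had the CHR upstream of the start, at -29 and -19. Mcm6 had no CHR but E2F sites at -110, -106 and -47, of which the first 2 overlap on opposite strands, and Mcm3 had an E2F site at 20 and CCAAT boxes at -117, -72 and -32.

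Over the whole window of RefSeq, which runs from 250 bases before to 50 after the start, 35 of the 42 genes could be matched, with 37 windows. A CHR was present in 20 of the 37 windows (54.1%), against 19.2% of all 32851 promoter windows of mouse genes. A CCAAT box was present in 26 (70.3%) against 37.4% of all windows, and an E2F site in 7 (18.9%) against 2.26%. All 5 genes of the spindle checkpoint and anaphase had both a CHR and a CCAAT box. The CHR was also found in 4 of 5 mitotic cyclins and kinases, in 6 of 10 spindle, kinetochore and cytokinesis genes and in 2 of 8 replication genes. CCAAT boxes did not separate the sets, as 6 of 8 replication genes and 6 of 10 spindle, kinetochore and cytokinesis genes had one. E2F sites were found in 6 of 8 replication genes and in 1 other gene, Cdk1. These are matches of letters in a window and not binding sites. They are set beside the signals below.

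The genes were lower in mϕ than in each DC subset. Their mean log2 signal was 6.40 ± 0.05 in mϕ, against 7.56 ± 0.21 in the CD103-CD11b- subset, 7.40 ± 0.07 in the CD103+CD11b+ subset, 7.58 ± 0.16 in the CD103-CD11b+ subset and 7.64 ± 0.19 in the CD103+CD11b- subset (SD over 3 arrays each). On single arrays this mean was 6.35 to 6.44 in mϕ and 7.33 to 7.79 in DCs, so that the 3 mϕ arrays lay together and well below all 12 DC arrays. The mean was lowest in mϕ for 41 of the 42 genes, against 27.4% of all genes, and the exception was Ccne2, whose mean was lowest in the CD103+CD11b+ subset.

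**Figure D1:**
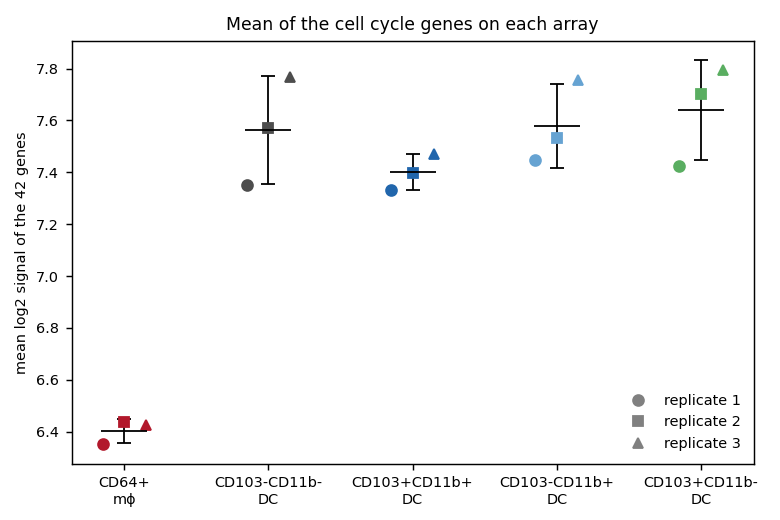
Mean log2 signal of the 42 cell cycle genes (vertical axis) on each array, by population. Points are the 3 replicate arrays, with a marker shape for each replicate number, the horizontal dash is their mean and the bars are 1 SD. The mϕ arrays sit between 6.35 and 6.44 and all DC arrays between 7.33 and 7.79.

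A gene is called here when its log2 signals differed by more than 1 with a Benjamini-Hochberg adjusted p under 0.01 over all genes in limma, a linear model that borrows the spread across genes. Over the 5 populations together 31 of the 42 genes were called by the F test with a range of population means over 1, against 10.7% of all genes. In mϕ, 22 genes were called lower than in the CD103+CD11b+ subset (2.34% of all genes were), 29 lower than in the CD103-CD11b+ subset (2.16%), 26 lower than in the CD103+CD11b- subset (2.99%) and 25 lower than in the CD103-CD11b- subset (2.57%). None was called higher in mϕ than in the CD103+CD11b+ subset (3.34% of all genes were), the CD103-CD11b+ subset (3.02%), the CD103+CD11b- subset (4.04%) or the CD103-CD11b- subset (3.73%), and none reached an unadjusted p under 0.05 in that direction in limma. The 4 comparisons share the mϕ arrays, so they are not independent of each other. The methods' t-test, which uses only the arrays of both groups for each gene, called 0 to 2 genes in them.

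The median log2 difference over the 42 genes was -1.07 for mϕ minus CD103+CD11b+ DCs, -1.26 for mϕ minus CD103-CD11b+ DCs, -1.29 for mϕ minus CD103+CD11b- DCs and -1.09 for mϕ minus CD103-CD11b- DCs. The median over all genes was between -0.02 and 0.03 in the same comparisons. Set against the mean of the 4 DC subsets, a comparison added after the values were seen, mϕ were below 0 for all 42 genes, with 29 called lower (2.19% of all genes were), none called higher (3.38% were) and 39 at an adjusted p under 0.01 in limma. The methods' t-test called 28 in this comparison. Here it took each gene's spread from all 15 arrays rather than from a pair of populations, so this count is not like those against single subsets. For 37 genes all 3 mϕ arrays lay below all 12 DC arrays, as for 6.54% of all genes, and for none did they lie above, as for 5.90% of all genes. The 5 genes whose arrays overlapped were Cdt1, Pcna, Tk1, Ccne2 and E2f1. In these bulk samples fewer dividing cells and less RNA in each dividing cell cannot be told apart.

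**Figure D2:**
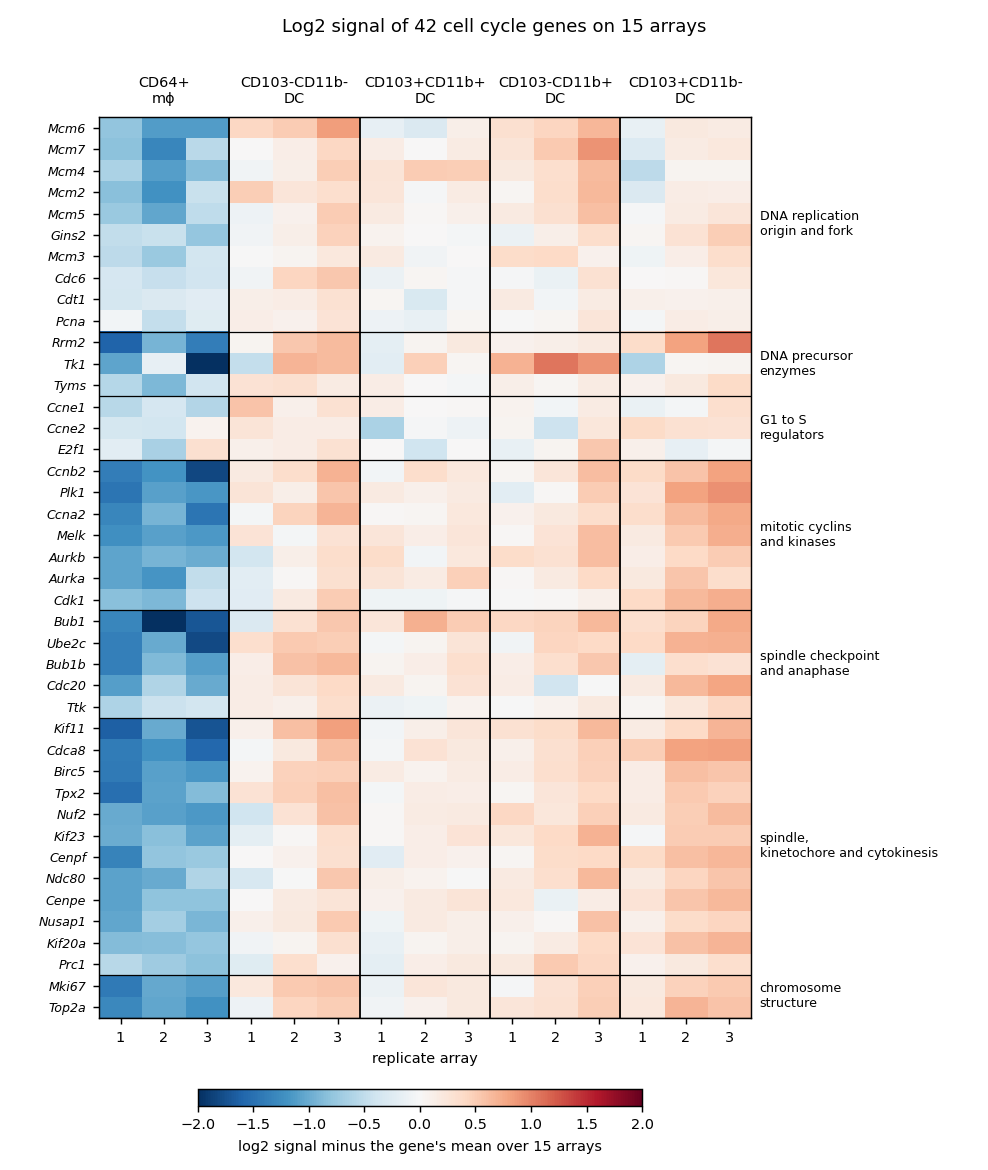
Log2 signal of each cell cycle gene (rows, grouped by role and ordered by the difference between mϕ and DCs) on each of the 15 arrays (columns), shown as the difference from the gene's own mean over all arrays, with blue below and red above it. The 3 mϕ columns are blue for nearly every gene, with Pcna, Tk1, Ccne2 and E2f1 the palest or most mixed rows, and the 12 DC columns show much smaller differences.

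Marker lists of cell types separated mϕ from DC arrays to unlike degrees. The mean log2 signal of 9 macrophage markers was 10.75 to 10.84 on mϕ arrays and 4.96 to 7.50 on DC arrays, and that of 5 pre-DC and shared DC markers 5.35 to 5.67 on mϕ arrays and 7.93 to 8.28 on DC arrays. The 11 gut epithelial markers were at 5.83 on the lowest and 7.35 on the highest mϕ array, which was replicate 2, and at 6.13 to 7.50 on DC arrays. The 8 markers of B and plasma cells were at 6.94 to 7.73 in mϕ and 6.02 to 8.38 on DC arrays, highest in the CD103-CD11b- subset, at 7.81 to 8.38. Those of plasmacytoid DCs were at 7.34 to 7.95 in mϕ and 6.68 to 8.77 on DC arrays. The 7 T cell and ILC markers were at 5.31 to 5.58 in mϕ and 4.27 to 4.89 on DC arrays. Of these, Cd4 (8.42 to 9.55 in mϕ, 5.27 to 5.92 in DCs) and Cd3g were called higher in mϕ. The median difference of the 7 from the mean of the DC subsets was 0.39, with 2 of them below 0. The 4 monocyte markers were at 6.77 to 6.97 in mϕ and 5.63 to 6.76 on DC arrays. Among them Ccr2 (2.69) and F13a1 (1.22) were called higher and Plac8 (-1.64) lower in mϕ. Of 3 markers of germinal centre B cells, which divide rapidly, Bcl6 was at 7.65 to 8.27 in mϕ and 8.91 to 10.16 in DCs, whereas S1pr2 was at 6.39 to 6.87 in mϕ and 5.88 to 6.22 in DCs, and Fas overlapped. Without mϕ replicate 2, 25 of the 42 genes were called lower than the mean of the DC subsets. Any further part of these other cells in the signals was not tested.

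Mitotic cyclins and kinases were lower in mϕ as a group, with 6 of 7 called against the mean of the DC subsets and a median log2 difference of -1.44. Ccnb2, a B-type cyclin that activates Cdk1 at the entry into mitosis, was at 7.14, 7.33 and 6.71 in mϕ, against 8.48 to 9.33 with a median of 8.88 on the 12 DC arrays. The highest mϕ array thus lay more than 1 log2 unit below the lowest DC array. The difference was -1.83 (SE 0.15, adjusted p = 2.26e-07 in limma), a signal 3.56-fold lower.

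Ccna2, the cyclin of S phase and early mitosis, was at 6.79, 7.15 and 6.62 in mϕ, against 8.04 to 8.84 (median 8.36) in DCs. Plk1, the kinase that drives centrosome maturation and mitotic exit, was at 5.51, 5.89 and 5.81 in mϕ, against 6.76 to 7.89 (median 7.19) in DCs. Both differed by -1.54, with SE of 0.14 for Ccna2 and 0.15 for Plk1, and neither overlapped between mϕ and DCs. Melk, a kinase of dividing cells, differed by -1.44 (SE 0.12), Aurkb, the kinase of the chromosomal passenger complex, by -1.23 (SE 0.13) and Aurka, the spindle pole kinase, by -1.13 (SE 0.14). All 6 were called in at least 3 of the 4 comparisons with single DC subsets.

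Cdk1, the kinase that these cyclins activate, was the 1 gene of the group that was not called against the mean of the DC subsets. Its signals were 7.01, 6.95 and 7.42 in mϕ, against 7.61 to 8.57 (median 7.91) in DCs, again without overlap, and the difference was -0.90 (SE 0.13, adjusted p = 7.52e-05 in limma), short of the fold threshold. It was called lower in mϕ only against CD103+CD11b- DCs, by -1.31, among the 4 subsets. Its promoter window held an E2F site as well as CHR matches, as did 1 of the windows of Mcm7.

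Genes of the spindle checkpoint and of anaphase held the largest difference. Bub1, a checkpoint kinase at the kinetochore, was at 5.61, 4.87 and 5.21 in mϕ, against 6.62 to 7.66 (median 7.36) in DCs. The difference was -2.10 (SE 0.17, adjusted p = 1.54e-07 in limma), or 4.30-fold, and it lay between -1.87 and -2.19 against the 4 subsets taken singly. Ube2c, the ubiquitin-conjugating enzyme of the anaphase-promoting complex, was at 6.92, 7.29 and 6.49 in mϕ, against 8.23 to 9.01 (median 8.70) in DCs, a difference of -1.75 (SE 0.14).

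Bub1b, which encodes the checkpoint protein BubR1, differed by -1.39 (SE 0.14) and Cdc20, the activator of the anaphase-promoting complex, by -1.13 (SE 0.14), and both were called. Ttk, the kinase that starts checkpoint signalling, was at 5.21, 5.40 and 5.46 in mϕ, against 5.71 to 6.25 in DCs. Its arrays did not overlap, but the difference of -0.58 (SE 0.09) did not reach the fold threshold in any comparison.

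Among the spindle, kinetochore and cytokinesis genes 11 of 12 were called against the mean of the DC subsets, with a median difference of -1.20, and none of the 12 overlapped between mϕ and DC arrays. Kif11, the motor that pushes spindle poles apart, was at 5.84, 6.46 and 5.75 in mϕ, against 7.42 to 8.30 (median 7.81) in DCs, a difference of -1.82 (SE 0.16). Cdca8 and Birc5 encode borealin and survivin, which anchor the chromosomal passenger complex. Cdca8 was at 5.85, 6.05 and 5.69 in mϕ, against 7.21 to 8.07 (median 7.56) in DCs, and Birc5 at 6.46, 6.79 and 6.72 in mϕ, against 7.94 to 8.48 (median 8.12) in DCs. Their differences were -1.74 (SE 0.13, adjusted p = 5.92e-08) and -1.53 (SE 0.11, adjusted p = 6.13e-08), which were the smallest adjusted p-values of the list in limma.

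Tpx2, which activates Aurka on the spindle, differed by -1.43 (SE 0.12), and Nuf2 and Ndc80, subunits of the complex that ties kinetochores to microtubules, by -1.35 (SE 0.15) and -1.12 (SE 0.15). The motors Kif23 and Kif20a, which act at the midzone in cytokinesis, differed by -1.21 (SE 0.13) and -1.04 (SE 0.10). Cenpf and Cenpe, proteins of the outer kinetochore, differed by -1.19 (SE 0.13) and -1.11 (SE 0.10), and Nusap1, which bundles spindle microtubules, by -1.10 (SE 0.13). Prc1, which crosslinks midzone microtubules, was at 5.14, 4.98 and 4.88 in mϕ, against 5.46 to 6.23 in DCs, and its difference of -0.87 (SE 0.12) was called only against CD103-CD11b+ DCs, at -1.08.

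Mki67, which encodes the proliferation antigen Ki67, was at 7.36, 7.74 and 7.67 in mϕ, against 8.65 to 9.33 (median 9.04) in DCs. Top2a, the topoisomerase that untangles replicated chromosomes, was at 7.19, 7.44 and 7.26 in mϕ, against 8.38 to 9.16 (median 8.74) in DCs. Both were called in all 4 comparisons, with differences of -1.48 (SE 0.12) and -1.47 (SE 0.12) from the mean of the DC subsets, and in both every mϕ array was below every DC array. A second Top2a probeset was dim, at 3.004 to 3.41 in mϕ and 3.22 to 3.89 in DCs, and differed by -0.24.

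**Figure D3:**
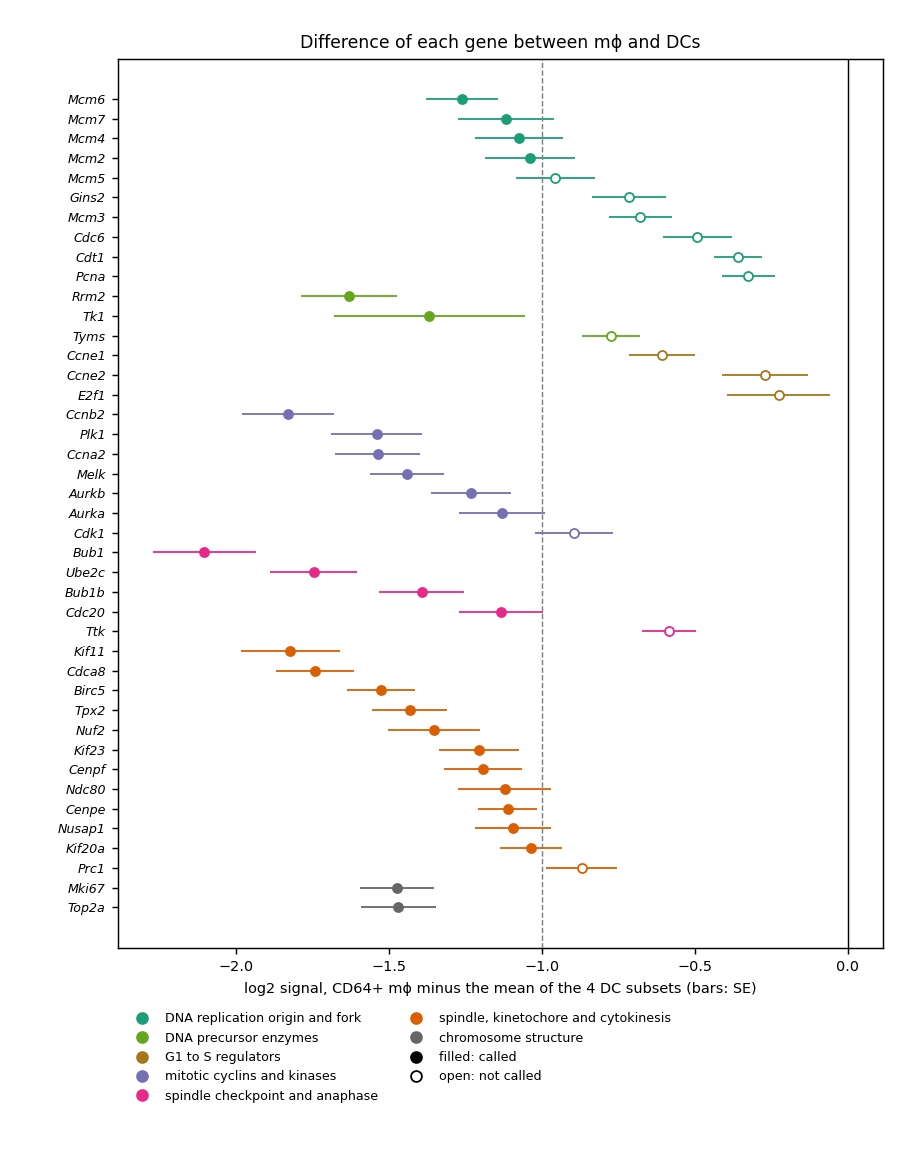
Difference in log2 signal between CD64+ mϕ and the mean of the 4 DC subsets (horizontal axis) for each cell cycle gene, coloured by role, with bars of 1 SE from limma. Filled points were called and open points were not, and the dashed line marks the fold threshold at -1. All points lie below 0, from Bub1 at -2.10 to E2f1 at -0.23.

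Genes of DNA replication were lower in mϕ by less. Their median difference was -0.84, and 4 of 10 were called against the mean of the DC subsets. Mcm6, a subunit of the MCM helicase, was at 7.34, 7.004 and 7.004 in mϕ, against 7.83 to 8.95 (median 8.38) in DCs, and the difference was -1.26 (SE 0.12, adjusted p = 9.61e-07 in limma). The other MCM subunits differed by -1.12 (SE 0.16) for Mcm7, -1.08 (SE 0.14) for Mcm4, -1.04 (SE 0.15) for Mcm2, -0.96 (SE 0.13) for Mcm5 and -0.68 (SE 0.10) for Mcm3, of which the first 3 were called. None of the MCM genes overlapped between mϕ and DC arrays.

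Gins2, a partner of the helicase at the fork, differed by -0.72 (SE 0.12), and Cdc6 and Cdt1, which load the helicase onto origins, by -0.49 (SE 0.11) and -0.36 (SE 0.08). Pcna, the sliding clamp of DNA polymerases, which also serves in DNA repair, was at 10.66, 10.24 and 10.47 in mϕ, against 10.57 to 10.98 (median 10.78) in DCs. These arrays overlapped, and the difference of -0.33 (SE 0.09) had an adjusted p of 0.0119 in limma. Its second probeset gave -0.36.

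The enzymes that make DNA precursors differed more widely. Rrm2, the cell cycle-regulated subunit of ribonucleotide reductase, was at 5.98, 6.65 and 6.21 in mϕ, against 7.40 to 8.66 (median 7.78) in DCs, a difference of -1.63 (SE 0.16, adjusted p = 1.26e-06 in limma). Tyms, thymidylate synthase, did not overlap between mϕ and DCs but differed by only -0.78 (SE 0.09). Tk1, thymidine kinase, was at 8.09, 8.98 and 7.07 in mϕ, a spread wider than that of any other gene of the list, against 8.53 to 10.21 (median 9.41) in DCs. Its difference of -1.37 (SE 0.31, adjusted p = 0.00405 in limma) was called, whereas the other Tk1 probeset, at 6.44 to 7.004 in mϕ and 7.06 to 8.02 in DCs, differed by -0.81 and was not.

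Regulators of the passage from G1 to S phase differed least, with a median of -0.27 and none of 3 called in any comparison with mϕ by limma. Ccne1, an E-type cyclin, was at 5.96, 6.18 and 5.93 in mϕ, against 6.37 to 7.08 (median 6.60) in DCs, a difference of -0.61 (SE 0.11) without overlap. Ccne2, the other E-type cyclin, was at 4.84, 4.83 and 5.28 in mϕ, against 4.57 to 5.59 (median 5.35) in DCs, and E2f1, a transcription factor of S phase genes, at 6.37, 5.92 and 6.89 in mϕ, against 6.18 to 7.12 (median 6.61) in DCs. Both overlapped widely, and their differences of -0.27 (SE 0.14, adjusted p = 0.207 in limma) and -0.23 (SE 0.17, adjusted p = 0.422) did not pass the test. Without mϕ replicate 2 the E2f1 difference was 0.010, and Aurka, Mcm2, Mcm4 and Mcm7 were no longer called.

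The promoter matches ran along these roles. The median difference between mϕ and DCs was -1.21 over the 19 genes with a CHR and -1.03 over the 16 without one. It was -0.90 over the 7 genes with an E2F site, 6 of them replication genes, and -1.28 over the other 28. For the CCAAT box it was -1.20 over the 24 genes with one and -1.10 over the 11 without. Of the promoters printed above, the CHR-bearing Bub1, Ccnb2, Kif11 and Ube2c differed by -2.10, -1.83, -1.82 and -1.75, the E2F-bearing Mcm6 by -1.26 and Mcm3 by -0.68. The printed genes with a CHR have the largest differences of the whole list, so these values do not compare CHR genes with E2F genes. Genes with neither element nor a CCAAT box, 8 in number, included Birc5, which differed by -1.53, and E2f1, which differed by -0.23.

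Between DC subsets the genes differed much less. Over the 4 DC subsets none of the 42 was called by the F test in limma, against 5.13% of all genes, and 2 had an adjusted p under 0.05. An unadjusted p under 0.05 was found for 11 of the 42 (26.2%), close to the 23.9% of all genes. In the 6 comparisons between pairs of subsets a single gene was called. Tk1 was higher in the CD103-CD11b+ subset, at 10.03 ± 0.19, than in the CD103+CD11b- subset, at 8.97 ± 0.38 (SD, n = 3), by 1.06 (SE 0.20, adjusted p = 0.00464 in limma), where 2.02% of all genes were called higher and 1.30% lower. Tk1 was no longer called with the mean of its probesets, with all 15 arrays in the fit, or without replicate 1 of the CD103+CD11b- subset or replicate 2 or 3 of the CD103-CD11b+ subset. The other Tk1 probeset averaged 7.77 in the CD103-CD11b+ subset and 7.42 in the CD103+CD11b- subset, short of the fold threshold.

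The small differences ran more often one way than the other. CD103+CD11b+ DCs had the lowest mean of the 4 subsets for 28 of the 42 genes, against 21.7% of all genes, and CD103+CD11b- DCs the highest for 22, against 23.0% of all genes. CD103+CD11b+ DCs lay below CD103+CD11b- DCs for 36 genes (41.2% of all genes did), with a median difference of -0.27, and below CD103-CD11b+ DCs for 37 genes (54.4% of all genes did), with a median of -0.17. CD103-CD11b- DCs lay above CD103+CD11b+ DCs for 35 genes (47.3% of all genes did), with a median of 0.20. On the DC arrays the genes vary together (median r of 0.72 with the mean of the others). The counts are therefore not of independent genes. Per array, the mean of the 42 genes was 7.33 to 7.47 in CD103+CD11b+ DCs. This overlapped with 7.42 to 7.79 in CD103+CD11b-, 7.45 to 7.76 in CD103-CD11b+ and 7.35 to 7.77 in CD103-CD11b- DCs. None of the 42 was called in these 3 comparisons by limma or by the methods' t-test, and 18 (42.9%), 7 (16.7%) and 6 (14.3%) had an unadjusted p under 0.05, against 24.4%, 12.5% and 16.8% of all genes, so that only the first share lay well above that of all genes. Of all genes 1.95% were called higher and 1.32% lower in the first, 0.231% and 0.306% in the second, and 0.908% and 1.02% in the third. These comparisons share the arrays of CD103+CD11b+ DCs, and the median SE over the genes was 0.13 in the fit of 9 arrays and 0.16 in that of 15. Mcm6 was the 1 gene at an adjusted p under 0.01 (0.00941) in the last of them, at 8.71 ± 0.22 in the CD103-CD11b- subset and 8.01 ± 0.21 in the CD103+CD11b+ subset.

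The pairs that set CD103-CD11b- DCs against the other subsets also had no call. CD103-CD11b- DCs differed from CD103-CD11b+ DCs by a median of 0.05, where 0.356% of all genes were called higher and 0.451% lower, and from CD103+CD11b- DCs by -0.12, where 1.61% were called higher and 1.05% lower. Unadjusted p-values under 0.05 numbered 3 (7.14%) and 6 (14.3%), below the shares of all genes (2540 and 3794 of 19938), and the methods' t-test called none. Markers of other cells differed between the DC subsets too. All 5 plasmacytoid DC markers were called higher in CD103-CD11b- than in CD103+CD11b+ DCs, with a mean log2 signal of 8.43 to 8.77 on CD103-CD11b- arrays and 6.68 to 6.97 on CD103+CD11b+ arrays, and so were 5 of 8 markers of B and plasma cells. The 11 gut epithelial markers were at 7.01 to 7.50 on CD103+CD11b+ arrays and 6.13 to 6.97 on the other DC arrays. Among them Epcam and Cdh1, which some DCs also express, were the 2 called higher in CD103+CD11b+ than in CD103+CD11b- DCs, and without these the means were 6.68 to 7.25 on CD103+CD11b+ arrays and 6.58 to 6.96 on CD103+CD11b- arrays, which overlap. The part of these cells in the small differences was not tested.

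Between CD103+CD11b+ and CD103+CD11b- DCs no member was called, and the values of the groups are given as a description. The median was -0.41 over the mitotic cyclins and kinases and -0.31 over the spindle, kinetochore and cytokinesis genes, and all 19 genes of these groups were below 0, as were 44 of 45 other mitosis genes, none of them called and with a median of -0.22. Of all genes 41.2% were below 0 in this comparison. Cdk1 was at 7.78 ± 0.04 in the CD103+CD11b+ subset and 8.43 ± 0.17 in the CD103+CD11b- subset, a difference of -0.66 (SE 0.09). Cdca8 was at 7.40 ± 0.17 in the CD103+CD11b+ subset and 7.96 ± 0.19 in the CD103+CD11b- subset, a difference of -0.56. The replication genes had a median of -0.11 in this comparison, as against -0.12 over the 32 other replication factors, and Mcm4 lay the other way, at 8.12 ± 0.14 in the CD103+CD11b+ subset and 7.56 ± 0.34 in the CD103+CD11b- subset, a difference of 0.56. Rrm2 had the lowest value of the list, at 7.61 ± 0.20 in the CD103+CD11b+ subset and 8.34 ± 0.35 in the CD103+CD11b- subset, a difference of -0.73. Cdk1 and Rrm2 had an adjusted p under 0.01 in limma (0.000657 and 0.00947), but none of these 4 genes passed the fold threshold.

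In the CD103-CD11b+ subset set against CD103+CD11b- DCs, the replication genes had a median of 0.19 with 8 of 10 above 0, and the 32 other replication factors a median of 0.07. The mitotic cyclins and kinases had a median of -0.28 with 6 of 7 below 0, the checkpoint and anaphase genes -0.14 with 4 of 5 below 0, and the spindle, kinetochore and cytokinesis genes -0.09 with 9 of 12 below 0. No gene of these groups was called, and the difference between the groups was not tested. Mcm7 was at 8.61 ± 0.32 in the CD103-CD11b+ subset and 8.09 ± 0.27 in the CD103+CD11b- subset, whereas Plk1 was at 7.07 ± 0.36 in the CD103-CD11b+ subset and 7.63 ± 0.34 in the CD103+CD11b- subset. These differences, 0.53 (SE 0.16) and -0.56 (SE 0.19), did not pass the test (adjusted p = 0.0585 and 0.0793 in limma). The interaction of CD103 with CD11b asks whether the effect of CD103 differs with CD11b. It had no member at an adjusted p under 0.01 in limma and a lowest adjusted p of 0.0864, while 518 of all genes were under 0.01. An unadjusted p under 0.05 was found for 9 members, all with a negative estimate. The share of all genes at that unadjusted limit was not counted, so the 9 are not read as a result.

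**Figure D4:**
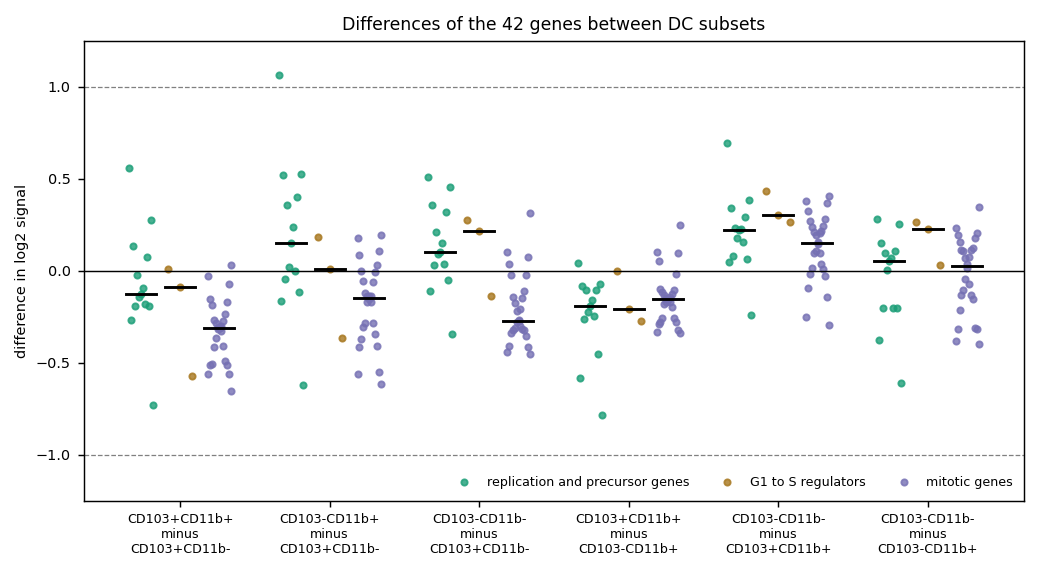
Differences in log2 signal of the 42 genes (vertical axis) in each of the 6 comparisons between DC subsets, with replication and precursor genes, G1 to S regulators and mitotic genes in separate columns. Points are genes, short lines are medians and dashed lines mark the fold threshold, which only Tk1 crossed, at 1.06.

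Within the 12 DC arrays the genes followed one another to different degrees. The correlation of a gene with the mean of the other 41 had a median Pearson r of 0.72 over these arrays, highest for Top2a (0.92), Birc5 (0.92), Kif11 (0.92) and Gins2 (0.91), and lowest for Ccne1 (0.09), Mcm4 (0.22) and Mcm2 (0.28). By role the median was 0.82 for spindle, kinetochore and cytokinesis genes, 0.72 for mitotic cyclins and kinases, 0.56 for replication genes and 0.40 for G1 to S regulators. These arrays share subset and normalization, and the values are a description.

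Other genes of the cell cycle, 108 measured in lists kept apart from the 42, behaved alike in part. Against the mean of the DC subsets 33 were called lower in mϕ and none higher by limma. They were 20 of 45 other mitosis genes, 8 of 32 other replication factors, 2 of 7 D cyclins and G1 kinases, 2 of 15 transcription factors and 1 of 9 CDK inhibitors and pocket proteins. The largest differences were those of Cep55, a scaffold of abscission (-1.76, SE 0.16), Uhrf1, which couples DNA methylation to replication (-1.60, SE 0.17), Shcbp1 (-1.49, SE 0.15) and Kif15, a spindle motor (-1.49, SE 0.13). Foxm1, a transcription factor of mitotic genes, was at 5.97, 6.15 and 6.04 in mϕ, against 6.92 to 7.83 in DCs, a difference of -1.27 (SE 0.08, adjusted p = 5.83e-09 in limma).

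The D cyclins, which answer growth signals early in G1, went different ways. Ccnd3 was at 7.29, 7.03 and 7.27 in mϕ, against 7.76 to 8.95 in DCs, and Ccnd1 at 9.46, 8.72 and 9.38 in mϕ, against 9.86 to 10.67 in DCs. Both were lower in mϕ, with log2 differences of -1.13 (SE 0.11) and -1.03 (SE 0.14) and no overlap. Ccnd2 was instead at 9.64, 9.19 and 10.05 in mϕ, above the 8.17 to 8.48 of CD103+CD11b- DCs and within the 8.92 to 10.07 of the other DC arrays. It was higher in mϕ than in the CD103+CD11b- subset by 1.35 (SE 0.19, adjusted p = 6.77e-05 in limma), and likewise higher in the CD103+CD11b+ subset, by 1.54 (SE 0.13), and in the CD103-CD11b+ subset, by 1.51 (SE 0.13).

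Of the 108 genes, Ccnd2, Mycl and Hells were those called in any pair of DC subsets by limma. Mycl, a MYC family factor, was at 8.32 to 8.41 in the CD103+CD11b- subset and between 6.29 and 7.55 on the arrays of the other DC subsets, and was called lower in the CD103+CD11b+ subset (-1.80), CD103-CD11b+ DCs (-1.66) and CD103-CD11b- DCs (-1.12) than in the CD103+CD11b- subset. Hells, a chromatin remodeller of dividing cells, was at 5.35 to 5.45 in the CD103+CD11b+ subset and 6.38 to 6.70 in the CD103+CD11b- subset, a difference of -1.16 (SE 0.10, adjusted p = 1.08e-05 in limma). It was also higher in the CD103-CD11b- subset than in the CD103+CD11b+ subset, by 1.05 (SE 0.12).

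Cell cycle inhibitors did not form a mirror image. Of the 9 CDK inhibitors and pocket proteins 7 lay below 0 and 2 above in mϕ against the mean of the DC subsets, with a median of -0.14. The 2 above 0 were Rb1 and Rbl2. Rb1, the pocket protein that restrains E2F factors, was at 8.73, 8.68 and 8.83 in mϕ, against 7.70 to 8.33 on the DC arrays, above all of them, as for 5.90% of all genes. The difference of 0.80 (SE 0.10, adjusted p = 1.71e-05 in limma) stayed under the fold threshold, as did that of its relative Rbl2, at 0.48 (SE 0.07). Cdkn2d, which encodes the CDK4 and CDK6 inhibitor p19, was lower in mϕ, at 6.03, 5.91 and 6.06 against 6.38 to 7.68 in DCs, a difference of -1.12 (SE 0.12), and Cdkn2c, which encodes p18, differed by -0.91 (SE 0.09). Cdkn1b, which encodes p27, differed by -0.07 (SE 0.11).

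**Figure D5:**
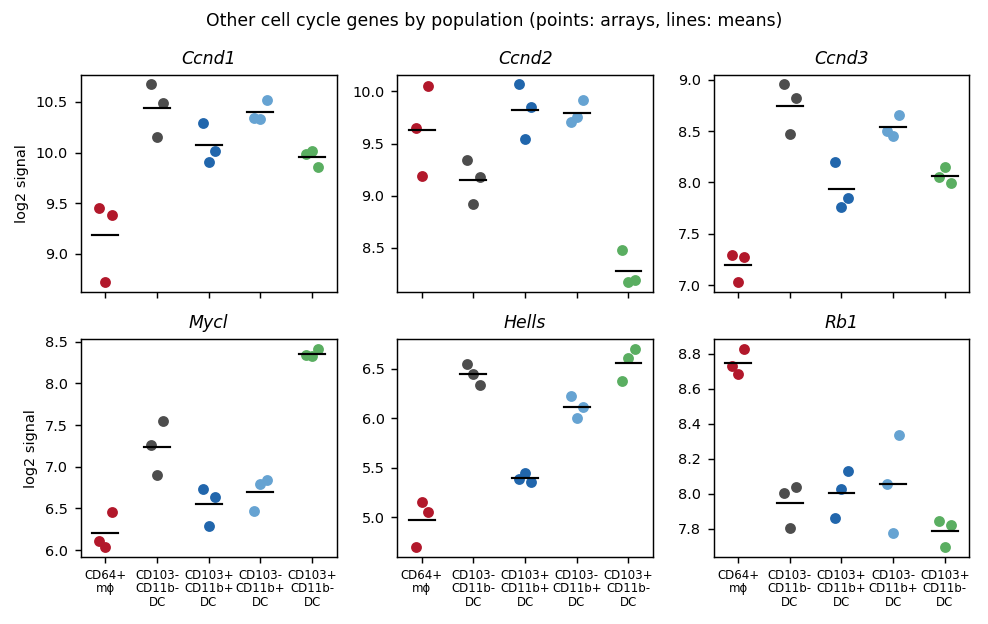
Log2 signal (vertical axes, each with its own range) of 6 further cell cycle genes by population. Points are the 3 arrays of a population and lines their means. Ccnd1 and Ccnd3 are lowest and Rb1 highest in mϕ, Ccnd2 is lowest and Mycl highest in the CD103+CD11b- subset, and Hells is near 5.40 in the CD103+CD11b+ subset.

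The genes outside the list whose signals were most like the mean of the 42, by Pearson r over the 15 arrays, were Ezh2, Dut, Rrm1, Stmn1, Crip1, Kif15, Mad2l1, Mns1, H2az1 and Ncapd2, with r between 0.98 for Ezh2 and 0.97 for Ncapd2. Over the 12 DC arrays alone r was 0.92 for Ezh2, 0.95 for Rrm1, 0.91 for Kif15 and 0.73 for Crip1, so the value over 15 arrays rests in part on the gap between mϕ and DCs. Ezh2, which encodes the methyltransferase of Polycomb repressive complex 2, was at 6.56, 7.05 and 6.53 in mϕ, against 7.91 to 8.67 (median 8.25) in DCs. Rrm1 and Dut act, like Rrm2, in the supply of DNA precursors, and they differed between mϕ and DCs by -1.26 and -1.42.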

How the data were processed

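Total RNA of sorted cells was amplified, labelled and hybridized to 1-colour whole-transcript arrays (GeneChip Mouse Gene 1.0 ST). The deposited values are log2 signals that the authors made with the Robust Multi-array Average procedure (background correction, probeset summary, quantile normalization). The normalization makes distributions alike and removes differences in total RNA. No version of the normalization software and no genome build is given in the sources used here.

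Of 35556 probesets, 21789 had 1 gene symbol in the platform annotation, 1621 had several and 12146 were not listed. For the 999 genes with more than 1 probeset the highest mean was used, which left 19938 genes.

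Comparisons used limma 3.58.1 in R 4.3.3. The 3 DC subsets analysed further in the study were fitted on their 9 arrays, and other comparisons on all 15, with no covariates. The thresholds were those of the study, 0.01 for the adjusted p and 1 for the log2 difference. Precision is limited by the 3 arrays of each population. Comparisons of mϕ with the mean of the 4 DC subsets, the F test over DC subsets and the lowest-mean probeset were added after the values were seen. Scripts were tested on simulated data. Summaries used pandas 2.3.3 and numpy 2.4.6 under Python 3.11.15, and figures matplotlib 3.10.9. Alternatives were the choice of probeset, array medians subtracted, leaving out dim genes (over log2 6 on fewer than 3 arrays), a trended spread, weighting of arrays, a limit of 0.05, treat, the t-test of the methods (the methods' t-test), other arrays in the fit, a replicate block and leaving out single arrays.

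The members and lists were chosen with earlier results of these data known. Every member could be named, of the other lists up to 4 genes per list and comparison with the largest called differences, and the 10 other genes most correlated with the mean of the members. Rb1, Rbl2, Cdkn2c and Cdkn1b were named for their role after their values were seen. Promoters came from RefSeq (GRCm38.p6).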

Additional observations from a re-analysis of the deposited data

How the results depend on the processing

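The count of genes called over the 5 populations, 31, was 30 to 32 when single arrays were left out and kept within 1.5 times under the 8 other alternatives run for it. Counts of genes lower in mϕ, with single arrays left out, were 21 to 26 (CD103+CD11b+ DCs), 27 to 30 (CD103-CD11b+ DCs), 26 to 29 (CD103+CD11b- DCs), 20 to 31 (CD103-CD11b- DCs) and 25 to 30 (mean of the DC subsets). Counts fell to 1, 1, 8, 3 and 6, in that order of comparisons, with treat, which tests against a log2 difference of 1 rather than 0. With the methods' t-test, which pools no spread across genes, they fell to 2, 1 and 0 for CD103+CD11b+, CD103+CD11b- and both other DC subsets taken singly. The mean of the DC subsets gave 28, with the spread of each gene taken from all 15 arrays. The call of Tk1 between CD103-CD11b+ and CD103+CD11b- DCs, 1 gene, was 0 with the mean of probesets, array medians subtracted, array weights, treat, the methods' t-test and all 15 arrays in the fit, and 0 to 1 with single arrays left out. It was lost without CD103+CD11b- DC replicate 1 or CD103-CD11b+ DC replicate 2 or 3. The cause of these losses was not tested.

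Of single genes against the mean of the DC subsets, E2f1 was -0.47 to 0.010 with single arrays left out, above 0 without mϕ replicate 2, where Aurka, Mcm2, Mcm4 and Mcm7 were no longer called, and Tk1 was not called without mϕ replicate 1 or 3. Tk1 and Top2a were not called with the lowest-mean probeset, nor Top2a with the mean of probesets. With a replicate block the counts were 22, 29, 26, 26 and 29 in mϕ and 1 between DC subsets, so it changed only the count against CD103-CD11b- DCs, from 25. Pairing is not stated in the labels. Of 30 pairs of arrays with the same number 18 had deviations correlated over 0.1 across genes, with a mean r of 0.12, and 2 of 15 arrays correlated best with their own number in every population. In the 4 DC subsets, but not in mϕ, replicate 3 had the highest mean of the 42 genes. Replicate 1 had the lowest mean in the 4 DC subsets and in mϕ. With 3 arrays a population, small differences between DC subsets may be missed, and dim genes such as Ccne2 have little range.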
